A study of Mus musculus with 21 samples.

Results

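Id proteins are helix-loop-helix proteins that lack the basic region with which related factors touch DNA. They pair with E proteins, the basic helix-loop-helix factors encoded by Tcf3 (E2A) and Tcf12 (HEB), and keep them off the E boxes to which E protein dimers bind. In early B cells E proteins switch on B lineage genes, and Id genes are known as early targets of bone morphogenetic protein (BMP) signals through SMAD factors and of growth factor signals through EGR factors. The genes described here are the inhibitors Id1, Id2 and Id3 and the E protein genes Tcf3 and Tcf12, picked by the name that the array files give to each probe. The 5 genes have 12 probes by that rule, out of 45281 probes with 30854 names.

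The cells were Ba/F3, a mouse pro-B cell line that grows on interleukin 3, and transcripts were measured on Illumina BeadChip arrays. In batch A, cells were actuated as droplets on a digital microfluidic device for 15 min at 400 Vpp and 1 kHz or 18 kHz, beside untreated cells. In batch B, cells were untreated or heated for 15 min to 42, 47 or 52 °C. Each of the 7 groups had 3 arrays, 9 in batch A and 12 in batch B, and each treatment was compared with the untreated cells of its own batch. No label says that replicates were separate cultures or how long after treatment the cells were lysed, so p-values reflect only how much these arrays differed, which may be technical. In bulk RNA, fewer cells with a transcript and less of it per cell cannot be told apart. Levels are log2 normalized intensities, and a change is a difference of 2 group means on that scale. A probe was kept where its deposited detection p was below 0.01 on at least 3 arrays of a batch, and limma's test over all kept probes of a batch made a call where the adjusted p was under 0.05. Because the genes were chosen with earlier results of the same arrays known, their adjusted p-values and calls are descriptions.

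The 18 kHz arrays were dim, with 95th percentiles of bead intensity of 732.7, 277.4 and 1110.7 against 1482.4 to 1524.2 in untreated cells of batch A, while the 12 arrays of batch B lay between 846.0 and 1563.7. Arrays of a batch were spread over 2 beadchips, here called A1 and A2 or B1 and B2, and no untreated array of batch A was on A1. Of the 3 arrays of a group a beadchip held 1 or 2, apart from the untreated cells of batch A, so a value within a beadchip mostly has a single array on one side, which is assumed to vary like the other groups. The labelled cell type was checked against 16 pro-B and Ba/F3 markers, of which 15 have a probe and 5 were detected on 3 or more arrays of each batch: Ptprc, Cd79b, Il3ra, Csf2rb and Csf2rb2. Pax5, Igll1, Rag1, Dntt and Kit were detected on 0 of 21 arrays, Ebf1 on at most 1 and Vpreb1 on 2. Of the markers of mast cells and basophils 6 of 7 were detected, of neutrophils 6 of 8, of erythroid cells 3 of 5 and of T cells 1 of 6 in batch A and 2 of 6 in batch B.

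The names in the files did not all lead to the genes meant. The 2 probes named TCF3 (3120500 and 3190138) carry the accessions NM_001079822.1 and NM_009332.2, which belong to Tcf7l1, a high mobility group factor of the WNT pathway whose older symbol was Tcf3. They are given as Tcf7l1 here. Tcf3 itself was probed by 2 probes named TCFE2A (5550044 and 6350010), matched by that synonym. Probe numbers are those of the files. Of the 12 probes 6 were kept, the same 6 in both batches, and they stand for Id1, Id2, Tcf12 and Tcf7l1, so that 3 of the 5 genes had a kept probe. The 6 others were near background: the Id3 probe 110471 was detected on 0 of 9 and 1 of 12 arrays, the Tcf3 probes on 1 and 0 of 9 and on 0 of 12, the Tcf12 probes 620463 and 2030274 on 0 and 1 of 9 and on 0 of 12, and the Tcf7l1 probe 3190138 on 0 of 21. Deposited intensities of these 6 were 100.7 to 183.3 (batch A) and 98.0 to 158.3 (batch B), while those of Id1 were 200.9 to 1518.1 and 293.8 to 1198.2. No level of Id3 or Tcf3 can be read from these arrays.

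**Figure D1:**
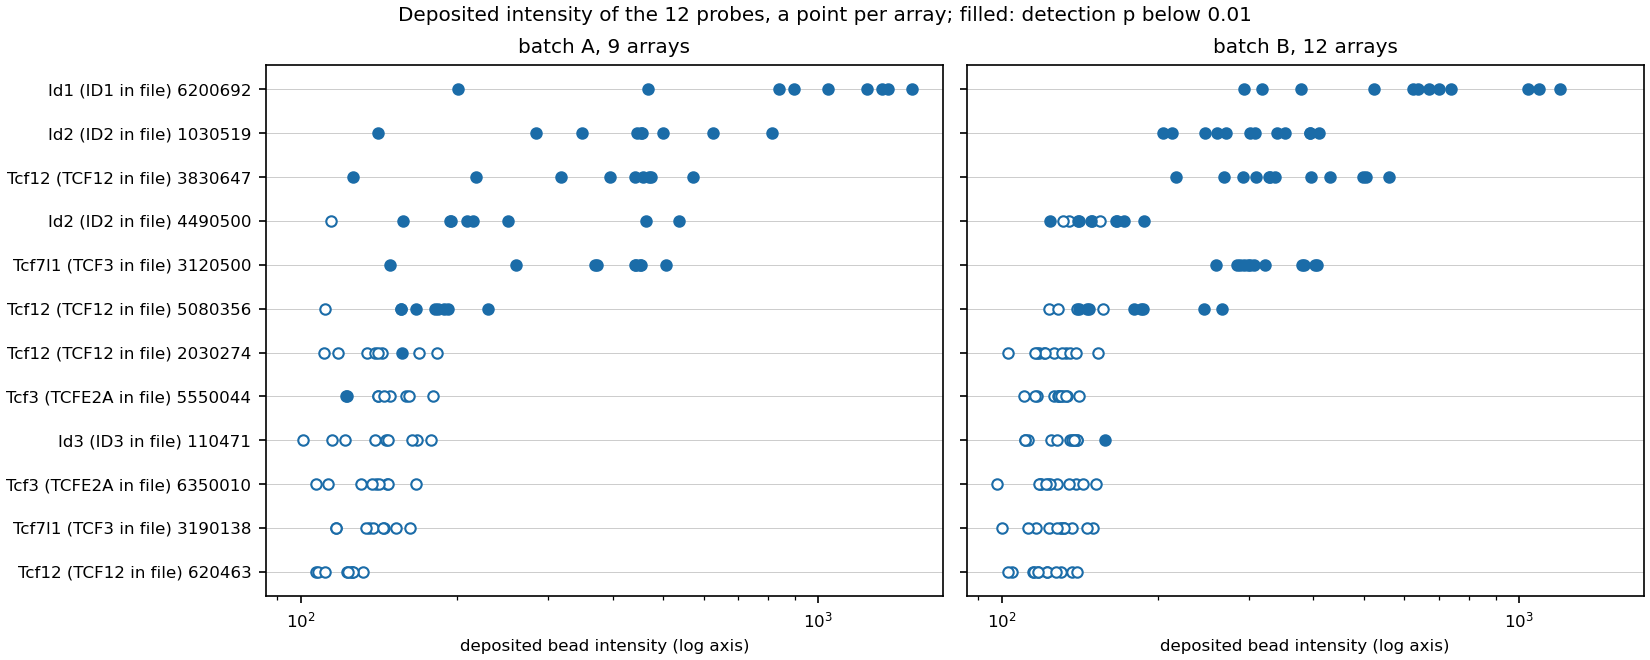
Deposited bead intensity (log axis) of the 12 probes, a point per array, in batch A (9 arrays, left) and batch B (12 arrays, right). Filled points had a detection p below 0.01. The Id1, Id2 (1030519), Tcf12 (3830647) and Tcf7l1 (3120500) probes are filled on all arrays, and the Id3 and Tcf3 probes are filled on at most 1 array each.

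Windows of 250 bases before to 50 bases after the transcription start were at hand for 4 of the 5 genes, Id2, Id3, Tcf3 and Tcf12, from RefSeq on build GRCm38.p6. The windows of Id2, which was detected on all arrays, and of Id3, which was near background, are shown to set a measured inhibitor beside one that was not. Capitals mark E boxes, with the letters CANNTG, the site to which E proteins bind.
Id2, chr12:25096043-25096342, minus strand: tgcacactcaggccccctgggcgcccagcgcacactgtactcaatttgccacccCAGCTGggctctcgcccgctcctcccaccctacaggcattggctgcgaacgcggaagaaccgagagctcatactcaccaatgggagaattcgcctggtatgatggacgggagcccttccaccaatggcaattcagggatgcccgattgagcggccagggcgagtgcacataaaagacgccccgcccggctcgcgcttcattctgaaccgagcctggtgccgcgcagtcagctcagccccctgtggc
Id3, chr4:136143572-136143871, plus strand: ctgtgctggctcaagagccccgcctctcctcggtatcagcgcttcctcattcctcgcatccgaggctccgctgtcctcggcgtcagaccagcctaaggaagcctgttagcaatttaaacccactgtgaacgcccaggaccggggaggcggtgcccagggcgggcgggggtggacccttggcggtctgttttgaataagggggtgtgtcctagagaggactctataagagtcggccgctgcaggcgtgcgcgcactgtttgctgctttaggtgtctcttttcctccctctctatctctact
The Id2 window holds 1 E box and the Id3 window 0, where 72.3% of 32851 windows hold at least 1. A GGCGCC run, the letters of a site of SMAD1 and SMAD5, was found 1 time in the Id2 window and 0 times in that of Id3, and is present in 11.9% of all windows. TGACG, the core of a cAMP response element, was found 0 times for Id2 and 1 time for Id3, and is present in 20.8%. Both strands were searched. These are matches of letters, and none was tested for binding.

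Id1 was the member with the largest difference. At 52 °C its level was 10.16, 10.33 and 10.43, against 8.52, 8.92 and 8.62 in untreated cells of batch B. All 3 heated arrays lay above the 3 untreated ones. The change was 1.62 ± 0.27 (SE, n = 3 arrays a group), or 3.08-fold (adjusted p = 0.00409), where 12.8% of all kept probes were called in either direction and 6.55% as higher, and 0.152% had a larger change upward. The difference was already present before any normalization: the deposited intensity was 1198.2, 1040.1 and 1091.4 at 52 °C and 523.9, 700.7 and 670.6 in untreated cells. It was called under all alternatives run on both beadchips together and with any 1 array left out. Within B1 and B2, with 1 array on one side, it was 1.66 and 1.73 (adjusted p = 0.0433 and 0.0767). Scaling by the median put it at 1.07, with the median of all kept probes then at -0.43. That scaling evens out the array medians over all 45281 probes, most of them not kept. Medians and shares of all probes given in this text are over kept probes.

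The milder temperatures did not follow one direction. At 42 °C the Id1 level was 7.15, 8.37 and 7.33, against the same untreated arrays. Each lay below the lowest untreated array, with replicate 2 the nearest to them and the other 2 well under it. The change was -1.07 ± 0.27 (adjusted p = 0.0645; 2.38% of all probes were called), and without replicate 2 it was -1.44 (adjusted p = 0.00364). It also passed without background correction, with an offset of 50, under median scaling and in the deposited log2 table, with values of -0.75, -0.94, -1.27 and -0.71. Within beadchip B1, which held that replicate, it was -0.40, and within B2 -1.27.

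At 47 °C Id1 stood at 9.63, 9.49 and 9.07, above all 3 untreated arrays. The change was 0.71 ± 0.27 (adjusted p = 0.124; 7.83% of all probes were called). The deposited intensities of 736.8, 637.7 and 623.5 at 47 °C overlap the untreated 523.9, 700.7 and 670.6. Under median scaling the change was 0.16 where the median of all probes was -0.46, and in the deposited log2 table it was 0.56 (adjusted p = 0.0261). Between the heated groups Id1 was 1.78 ± 0.27 higher at 47 than at 42 °C (adjusted p = 0.0039; 1.08% of all probes were called as higher), and 0.98 and 2.25 within the 2 beadchips. The difference of 52 from 47 °C was 0.91 ± 0.27 (adjusted p = 0.0779; 3.46% called), and it passed without background correction, with an offset of 50, with beadchip as a block and in the deposited table (0.76 to 1.03, adjusted p = 0.00886 to 0.0389).

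Set in order, the mean Id1 level of batch B was 8.69 ± 0.21 in untreated cells, 7.62 ± 0.66 at 42 °C, 9.40 ± 0.29 at 47 °C and 10.31 ± 0.14 at 52 °C (SD, n = 3 each). The order by level is thus 42 °C, untreated, 47 °C and 52 °C. None of the 3 pairs of neighbours in that order passed the test as first set, though each passed under the alternatives named above, while 47 against 42 °C and 52 °C against untreated did.

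No change of Id1 was called in actuated cells. At 1 kHz the level was 10.14, 9.86 and 9.86, and at 18 kHz 9.40, 9.42 and 10.09, against 9.25, 9.90 and 9.37 in untreated cells of batch A. By level both actuated groups overlapped the untreated one. The deposited intensity at 1 kHz did not, with 1366.0, 1326.7 and 1518.1 against 839.2, 1244.4 and 898.8 in untreated cells. Array brightness differed too, with 95th percentiles of 1401.8, 1618.5 and 1857.1 at 1 kHz against 1482.4 to 1524.2 in untreated cells. The change was 0.45 ± 0.24 at 1 kHz (adjusted p = 1.00; 0% of all probes were called) and 0.13 ± 0.24 at 18 kHz (adjusted p = 0.735; 2.94% called). At 18 kHz the deposited intensity was 468.7, 200.9 and 1041.7, which overlaps the same untreated values. With the dim 18 kHz replicates 1 and 2 left out, a choice made after the data were seen, the one array left was 0.58 higher than untreated cells (adjusted p = 0.383), and under median scaling the change was -1.17 with the median of all probes at -1.09.

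**Figure D2:**
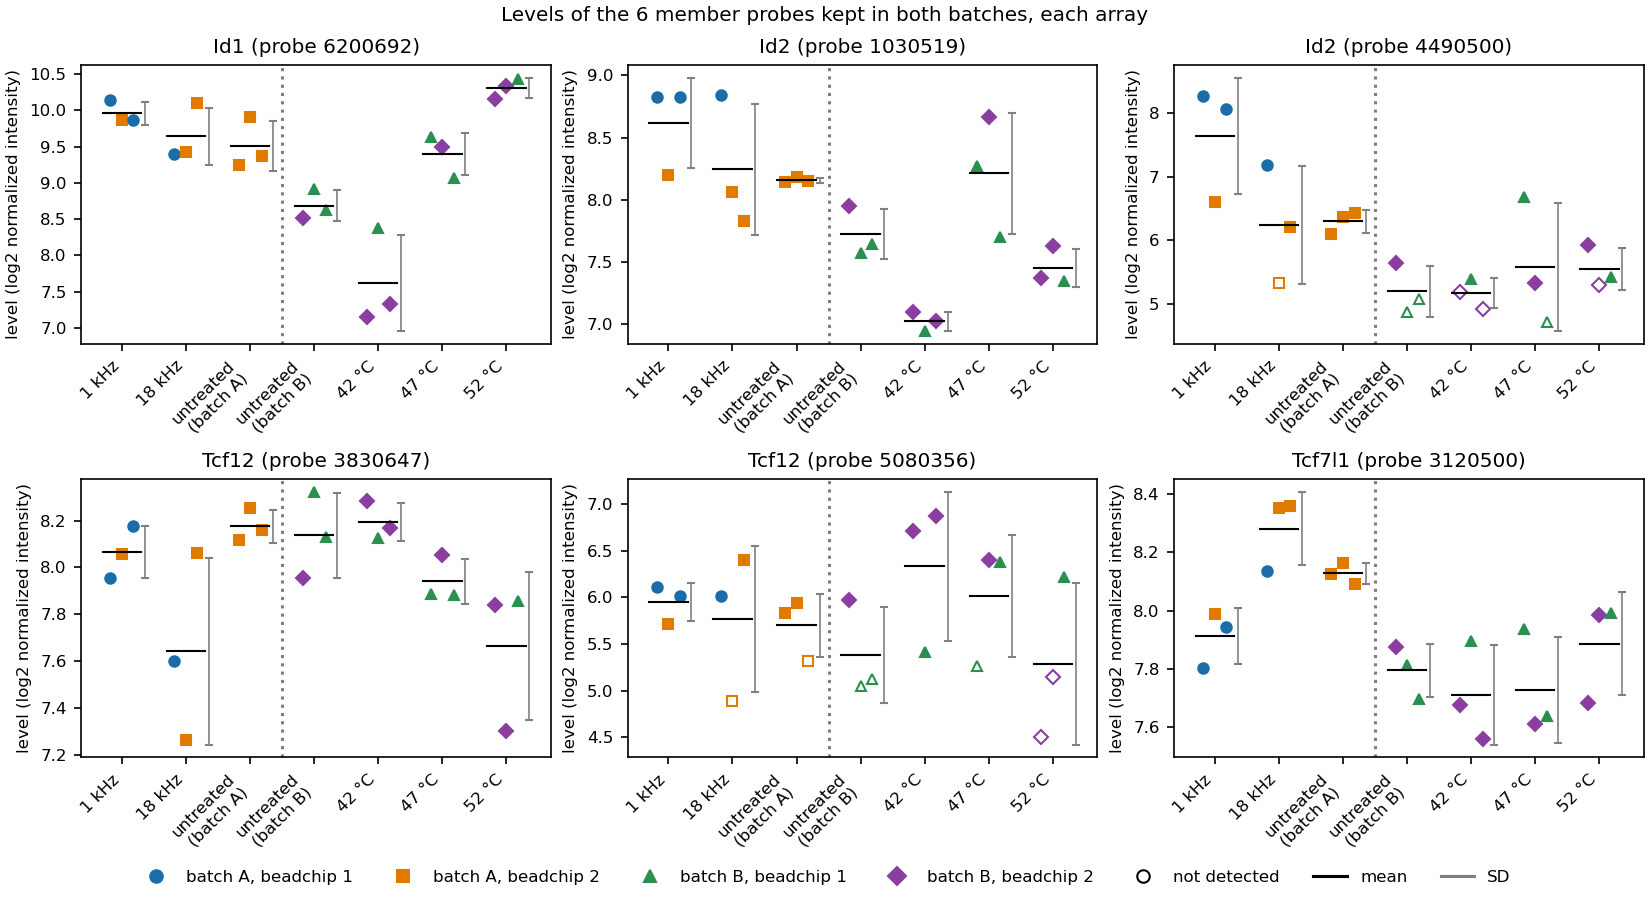
Level (log2 normalized intensity) of the 6 kept probes on each array, by group, with the beadchip as the symbol, open symbols where not detected, a bar at the mean and a line for the SD (n = 3). Id1 at 52 °C lies at 10.16 to 10.43, above all other arrays of batch B, and by both Id2 probes shown the 3 arrays of beadchip A1 have the highest levels of batch A.

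Id2, the second inhibitor, was read by 2 kept probes of one accession, NM_010496.2. By the brighter one (1030519) the level at 42 °C was 7.09, 6.94 and 7.02, against 7.95, 7.57 and 7.64 in untreated cells. The groups do not overlap, and the 3 arrays at 42 °C lie close together. The change was -0.70 ± 0.21 (adjusted p = 0.122), and it passed in a fit blocked by beadchip (-0.81, adjusted p = 0.0357) and under median scaling (-0.90, adjusted p = 0.0414).

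At 47 °C the same probe stood at 8.27, 8.67 and 7.70, overlapping the untreated arrays, and the change was 0.49 ± 0.21 (adjusted p = 0.163). At 52 °C it was 7.37, 7.62 and 7.35, which also overlaps, with a change of -0.27 ± 0.21 (adjusted p = 0.407). Like Id1, Id2 was higher at 47 than at 42 °C, by 1.19 ± 0.21 (adjusted p = 0.0113), and without 42 °C replicate 3 the adjusted p was 0.0605. The deposited intensities of these groups overlap, with 352.7, 409.9 and 302.0 at 47 °C and 308.9, 204.4 and 260.2 at 42 °C. Unlike for Id1, the levels at 52 °C were below all 3 at 47 °C, where 22.1% of all probes had groups that did not overlap. The mean difference was -0.77 ± 0.21 (adjusted p = 0.0628). It passed without background correction, with an offset of 50, with beadchip as a block, in the deposited table and without 47 °C replicate 3.

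The dimmer Id2 probe (4490500) was detected on 6 of 12 arrays of batch B and showed less. Its level there ran from 4.72 to 6.68, with means of 5.20 ± 0.40 in untreated cells, 5.17 ± 0.24 at 42 °C, 5.58 ± 1.00 at 47 °C and 5.55 ± 0.33 at 52 °C (SD, n = 3 each). Its changes against untreated cells were -0.03, 0.38 and 0.35 at 42, 47 and 52 °C, with adjusted p-values of 0.579 to 0.979. The 2 probes thus gave different values at 42 °C, where the dimmer one was detected on 1 of 3 arrays in each of the 2 groups.

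In batch A the Id2 level by these 2 probes followed the beadchip. By probe 1030519 it was 8.83, 8.19 and 8.82 at 1 kHz and 8.84, 8.06 and 7.83 at 18 kHz, against 8.14, 8.18 and 8.15 in untreated cells. The 3 arrays at 8.82 to 8.84 are the 3 on beadchip A1, 2 at 1 kHz and 1 at 18 kHz, and the 6 arrays on A2 lay at 7.83 to 8.19. The change at 1 kHz was 0.46 ± 0.27 (adjusted p = 1.00), -0.05 with beadchip as a block and 0.04 within A2. By probe 4490500 the 1 kHz arrays read 8.27, 6.60 and 8.05 and the 18 kHz arrays 7.18, 5.32 and 6.20, against 6.09, 6.37 and 6.44 in untreated cells. Again the A1 arrays were the highest of their groups, and the change of 1.34 ± 0.53 at 1 kHz (unadjusted p = 0.0326, adjusted p = 1.00) was 0.35 with beadchip as a block and 0.30 within A2. At 18 kHz the changes were 0.09 ± 0.27 and -0.06 ± 0.53 by the 2 probes (adjusted p = 0.857 and 0.949).

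A further probe (3130292) is named IDB2, an older symbol of Id2, and falls outside the rule, so its values were added after they were seen. It was matched to Id2 by that synonym alone, and no Entrez identifier is given for it. It was detected on 6 of 9 and 11 of 12 arrays, at deposited intensities of 123.8 to 214.5. In batch A it did not follow the beadchip as the other 2 probes did. At 1 kHz it read 5.45 and 5.51 on A1 and 5.83 on A2, and its A1 array at 18 kHz (6.46) was the lowest of that group. Its level was 6.46, 7.05 and 7.18 at 18 kHz, against 5.18, 5.73 and 5.16 in untreated cells, of which 1 of 3 was detected, so that their mean rests partly on background. The deposited intensities overlap, with 166.4, 123.8 and 214.5 at 18 kHz against 159.0, 173.6 and 150.4 in untreated cells, and the lowest of the batch, 123.8, stands at a level of 7.05 after normalization. The fitted change was 1.54 ± 0.23 (adjusted p = 0.0194), beside 0.09 and -0.06 by the probes above, and it did not pass under median scaling (0.63), within A2 or without untreated replicate 1 or 3. For 18 against 1 kHz it was 1.30 (adjusted p = 0.0369), and 0.31 under median scaling (adjusted p = 0.527). At 47 °C it stood at 6.24, 6.77 and 6.07, against 5.42, 5.44 and 5.51 in untreated cells, groups that do not overlap. That change was 0.90 ± 0.21 (adjusted p = 0.0281), 0.48 under median scaling (adjusted p = 0.12), and it did not pass without 47 °C replicate 2 or any 1 untreated array. The deposited intensities overlap there too, with 168.0, 197.6 and 171.4 at 47 °C and 163.7, 159.6 and 173.4 in untreated cells. Against 5.34, 4.65 and 5.21 at 42 °C the 47 °C arrays gave a change of 1.29 ± 0.21 (adjusted p = 0.00655), close to the 1.19 of probe 1030519. Taken as an Id2 probe, 3130292 therefore disagrees with the other 2 at 18 kHz. At 47 °C against untreated cells 1 of the 3 probes was called, and for 47 against 42 °C 2 of the 3 were.

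Tcf12, which encodes the E protein HEB, was not called in any comparison by either kept probe. By its brightest probe (3830647) the level at 52 °C was 7.84, 7.30 and 7.86, against 7.96, 8.32 and 8.13 in untreated cells. All 3 heated arrays lay below the untreated ones, 2 of them by little. The change was -0.47 ± 0.17 (adjusted p = 0.0793), -0.56 without 52 °C replicate 1 (adjusted p = 0.0366) and -0.29 without replicate 2. At 42 and 47 °C the changes were 0.06 and -0.20 ± 0.17 (adjusted p = 0.913 and 0.494). Among the alternatives this probe passed, as lower, in 3 of 16 at 52 °C, 1 of 16 at 47 °C and 2 of 15 at 18 kHz.

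At 18 kHz the same Tcf12 probe stood at 7.60, 7.27 and 8.06, against 8.12, 8.25 and 8.16 in untreated cells. The groups do not overlap, but the brightest 18 kHz array, replicate 3, was just under the lowest untreated one. The change was -0.53 ± 0.19 (adjusted p = 0.121), -0.74 without replicate 3 (adjusted p = 0.0078) and -0.12 from replicate 3 alone (adjusted p = 0.799). Among the 3 arrays at 18 kHz the order by this level is the order by array brightness, and the part of their dimness in the change was not tested. At 1 kHz the level was 7.96, 8.06 and 8.18, and the change was -0.11 ± 0.19 (adjusted p = 1.00).

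The second kept Tcf12 probe (5080356, accession AK078415) was detected on 7 of 9 and 7 of 12 arrays. Its level ran from 4.50 to 6.87 in batch B, and within the 3 arrays at 52 °C from 4.50 to 6.21. Its largest change was 0.95 ± 0.48 at 42 °C (adjusted p = 0.394), and at 52 °C, where the brighter probe was at -0.47, it was at -0.10 ± 0.48 (adjusted p = 0.914). No change of this probe was called in any comparison.

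Tcf7l1, read by the probe that the files call TCF3, was the steadiest of the kept probes. Its level was 7.81, 7.99 and 7.94 at 1 kHz and 8.14, 8.35 and 8.36 at 18 kHz, against 8.13, 8.16 and 8.09 in untreated cells of batch A. The 3 arrays at 18 kHz lay above the 3 at 1 kHz, where 28.6% of all probes had groups that did not overlap. The Tcf7l1 difference was 0.37 ± 0.11 (adjusted p = 0.0945; 2.41% of all probes were called). Under median scaling it was -0.94, where the median of all probes was -1.13. In batch B its 12 arrays lay between 7.56 and 7.99, and its changes at 42, 47 and 52 °C were -0.08, -0.07 and 0.09 ± 0.15 (adjusted p = 0.717 to 0.848).

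**Figure D3:**
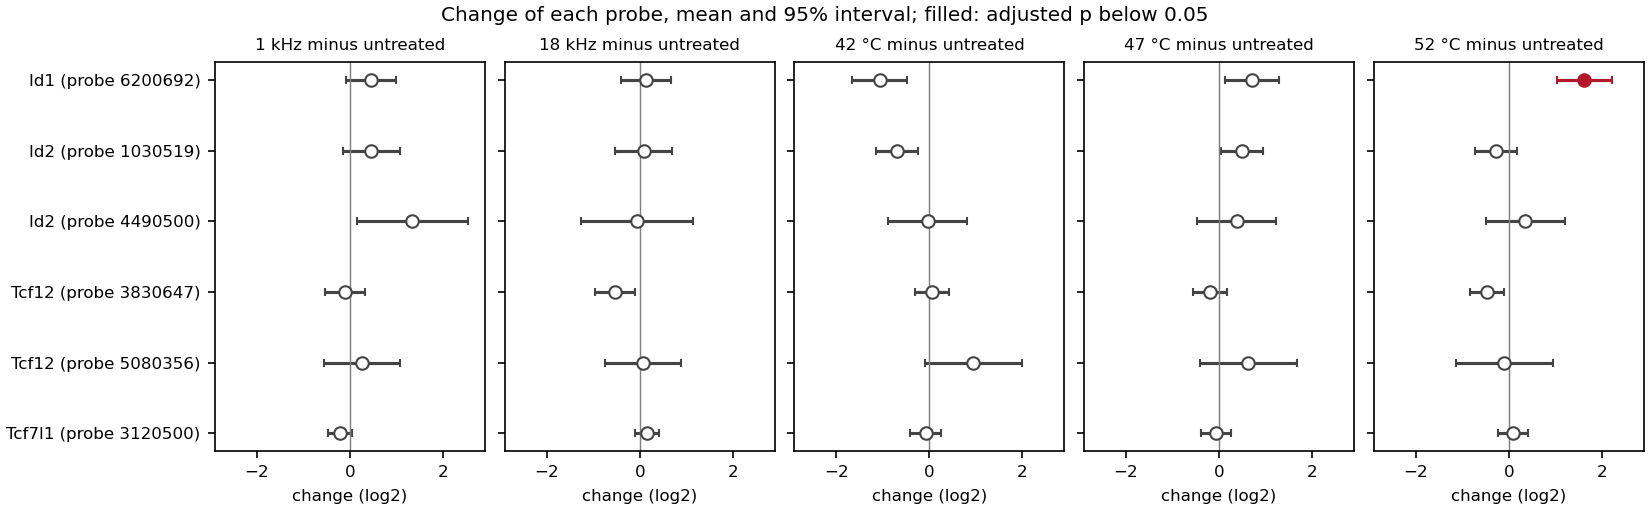
Change against untreated cells of the same batch (log2, mean and 95% interval from limma) of the 6 kept probes, a panel for each treatment. Id1 at 52 °C (1.62) is the filled point, the one with an adjusted p below 0.05. The intervals of Id2 probe 4490500 and Tcf12 probe 5080356 are the widest.

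Counted over the 6 kept probes, 0 were called at 1 kHz, 18 kHz, 42 °C and 47 °C and 1 at 52 °C, where 0%, 2.94%, 2.38%, 7.83% and 12.8% of all probes were called. Between treated groups 0 were called for 18 against 1 kHz (2.41% of all probes), 2 for 47 against 42 °C (Id1 and Id2, both higher; 2.38% of all probes were called) and 0 for 52 against 47 °C (3.46%). At an unadjusted p below 0.05 limma found 1 of the 6 at 1 kHz, 1 at 18 kHz and 2 at each temperature, where 1.78%, 28.3%, 14.9%, 25.8% and 29.9% of all probes had one. Groups that did not overlap were seen for 3, 1, 2, 1 and 2 of the 6 probes, in the same order, against 13.3%, 30.3%, 27.2%, 34% and 31% of all probes. The median change of the 6 probes was 0.35 at 1 kHz, 0.08 at 18 kHz, -0.06 at 42 °C, 0.44 at 47 °C and -0.0028 at 52 °C, beside medians of all probes of -0.04, -0.08, 0.00, -0.01 and -0.01. The bead standard error of the kept probes was 2.59 to 7.17% of the intensity, from 24 to 64 beads.

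**Figure D4:**
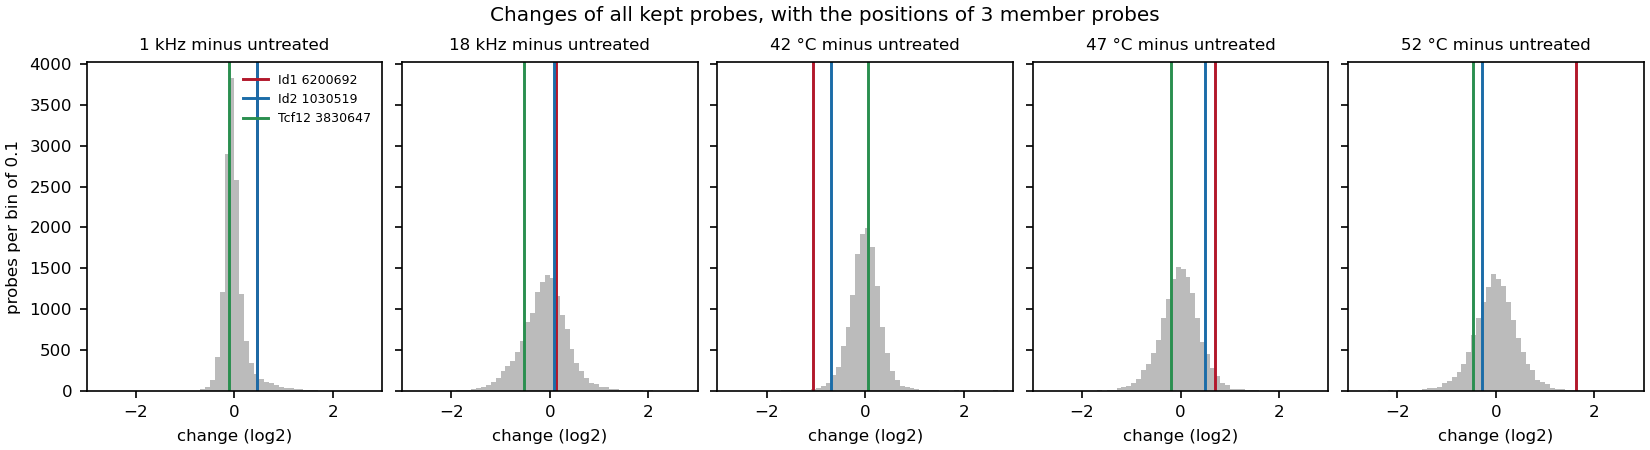
Number of kept probes per 0.1 log2 bin of change against untreated cells, a panel for each treatment, with lines at Id1, Id2 (1030519) and Tcf12 (3830647). Id1 lies at the far right at 52 °C (1.62) and at the left edge at 42 °C (-1.07), and within the bulk at 18 kHz (0.13).

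The 18 kHz and heat effects were set against each other in a fit of all 21 arrays, each effect taken against the untreated cells of its batch. For Id1 the 18 kHz effect minus the 42 °C effect was 1.16 ± 0.38 (adjusted p = 0.14; 1.51% of all probes were called), and without 42 °C replicate 2 it was 1.51 (adjusted p = 0.0308). Minus the 47 °C effect it was -0.54 ± 0.38 (adjusted p = 0.543; 0.215% called). Minus the 52 °C effect it was -1.41 ± 0.38 (adjusted p = 0.0804; 0.799% called), which passed without background correction (-1.22, adjusted p = 0.0324), without 18 kHz replicate 3 and without 52 °C replicate 1. Of the 6 kept probes 0 were called in each of the 3 differences, and 3, 0 and 1 had an unadjusted p below 0.05, as did 17.2%, 14.2% and 18.1% of all probes. By probe 3130292, which is outside the rule and was matched to Id2 by synonym, the 18 kHz effect exceeded the 42 °C effect by 1.92 (adjusted p = 0.00417).

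Partners and cofactors of E proteins were read in a list of 20 genes, of which 13 were measured. None was called at 1 kHz, 18 kHz, 42 °C or 47 °C, where 0%, 2.94%, 2.38% and 7.83% of all probes were. At 52 °C 3 of 13 rose and 0 fell, where 6.55% of all probes were called as higher, with a list median of 0.34 against -0.01 over all probes. These were Cbfa2t3, a corepressor found in complexes with E proteins (11.40 ± 0.33 at 52 °C, 10.63 ± 0.07 untreated; 0.77, adjusted p = 0.0136), and Lyl1 and Tal1, basic helix-loop-helix factors that bind DNA as dimers with E proteins. Lyl1 averaged 10.06 ± 0.15 at 52 °C and 9.40 ± 0.15 in untreated cells (0.66, adjusted p = 0.0145). Tal1 averaged 10.13 ± 0.16 at 52 °C and 9.64 ± 0.13 in untreated cells (0.49, adjusted p = 0.031). Under median scaling these changes were 0.19, 0.12 and -0.04, a turned sign for Tal1, with none called and the median of all probes at -0.43. With 1 array left out Cbfa2t3 lost its call without 52 °C replicate 2 or 3, Lyl1 without untreated replicate 3 and Tal1 without 52 °C replicate 2 or 3 or untreated replicate 2 or 3. Tcf4, the third E protein gene, was at 0.22 (adjusted p = 0.355), and the coactivator Ep300 at -0.59 (adjusted p = 0.0809).

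Of 24 genes of the BMP, SMAD and EGR routes that act on Id transcription, 12 were measured in batch B and 11 in batch A. The EGR zinc finger factors moved most. Egr1 rose at 42 °C, to 7.20 ± 0.41 against 5.42 ± 0.01 in untreated cells (1.77, adjusted p = 0.00281), and was at 0.04 at 52 °C (adjusted p = 0.941). Egr2 fell at 18 kHz, to 5.51 ± 0.79 with detection on 1 of 3 arrays, against 10.23 ± 0.85 in untreated cells (adjusted p = 0.00499). It also fell at 47 °C, to 5.77 ± 0.81 (2 of 3 detected, adjusted p = 0.000119), and at 52 °C, to 5.21 ± 0.24 (1 of 3 detected, adjusted p = 3.46e-05), against 9.56 ± 0.12 in untreated cells of batch B. No fold is given for Egr2, since part of these arrays hold only background. Bmpr2, a BMP receptor, fell at 52 °C (-0.43, adjusted p = 0.0499), and lost its call without any of 5 of the 6 arrays compared. The measured SMAD genes Smad2, Smad3 and Smad5 were not called in any comparison with untreated cells. The list median was -0.12 at 18 kHz, -0.24 at 42 °C, -0.16 at 47 °C and -0.03 at 52 °C. Of the list 1, 1, 1 and 2 genes were called at these, where 2.94%, 2.38%, 7.83% and 12.8% of all probes were.

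Genes that E proteins are known to switch on in B lineage cells mostly had no kept probe. Such a gene was near background or, like Cd79a, had no probe under its name. Of 21 listed genes 5 were measured in batch A and 4 in batch B. Cd79b, a chain of the B cell receptor, rose at 47 °C, to 8.29 ± 0.07 against 7.41 ± 0.05 in untreated cells (0.88, adjusted p = 0.00182), 0.34 under median scaling (adjusted p = 0.229). It was at 0.26 at both 42 and 52 °C (adjusted p = 0.322 and 0.152). Cdkn1a, a cell cycle inhibitor, fell at 18 kHz (-0.73, adjusted p = 0.0424), a call lost without 18 kHz replicate 1 or 2 or any 1 untreated array. The list medians were -0.14 at 18 kHz, -0.24 at 42 °C, -0.07 at 47 °C and 0.03 at 52 °C. Of the list 1, 0, 1 and 0 genes were called at these, where 2.94%, 2.38%, 7.83% and 12.8% of all probes were.

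Id and E proteins are turned over by the ubiquitin system, and 9 of 10 listed enzymes were measured in batch B and 8 in batch A. Skp2, an F-box subunit of a ubiquitin ligase, rose at 47 °C (0.72, adjusted p = 0.00859) and 52 °C (0.72, adjusted p = 0.00528), with means of 9.30 ± 0.05 and 9.30 ± 0.06 against 8.59 ± 0.06 in untreated cells. Fzr1, an activator of the anaphase promoting complex, rose at 47 °C (0.44, adjusted p = 0.0493) and 52 °C (0.47, adjusted p = 0.031), with calls lost without any 1 of the 6 arrays at 47 °C and without 5 of the 6 at 52 °C. Median scaling puts Skp2 at 0.18 and 0.20 and Fzr1 at -0.07 and -0.10, a turned sign for Fzr1, with the median of all probes at -0.46 and -0.43. Usp1, which removes ubiquitin from Id proteins, was at 0.09 at 52 °C (adjusted p = 0.647). None of the list was called at 1 kHz, 18 kHz or 42 °C, where 0%, 2.94% and 2.38% of all probes were. At 47 and 52 °C 2 of 9 were called, both as higher, where 3.42% and 6.55% of all probes were called as higher. The median of this list was 0.34 at 47 °C and 0.14 at 52 °C, against -0.01 over all probes at each.

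The probes whose pattern over the 21 arrays was most like that of Id1, as levels minus the untreated mean of the batch, were 9830144J08RIK (r = 0.88), LOC100047273 (r = 0.87) and Gtpbp6 (r = 0.85). Among those most like Id2 (1030519) were Cstdc5 (r = 0.87) and LOC385923 (r = 0.81). They were picked as the highest of 13001 and 12999 probes, and the arrays share beadchips and normalization, so the values carry no test. Within batch A alone the 3 values for Id1 were 0.71, 0.41 and 0.26, and within batch B 0.93, 0.95 and 0.90. For the 2 named beside Id2 they were 0.90 and 0.79 in batch A and 0.86 and 0.79 in batch B.

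**Figure D5:**
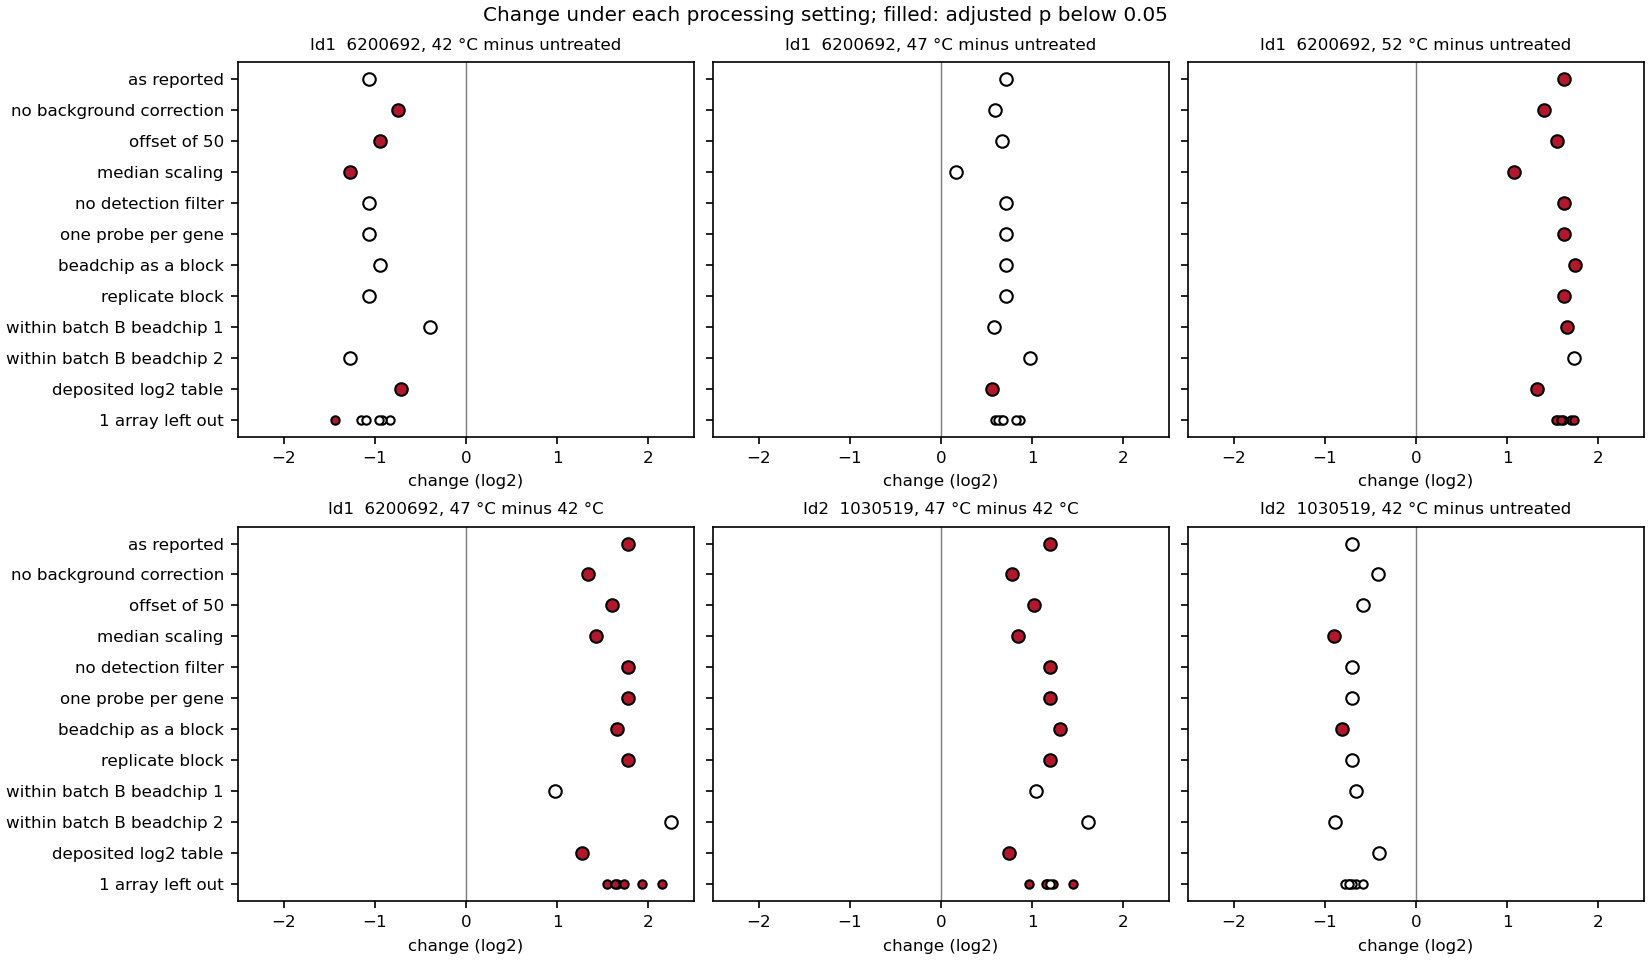
Change (log2) of Id1 and Id2 (1030519) under each way of processing, a panel for each of 6 comparisons, with filled points where the adjusted p was below 0.05 and the last line holding 1 point for each array left out. Id1 at 52 °C stays between 1.07 and 1.74 and is open within beadchip B2, whereas Id1 at 42 °C (-1.44 to -0.40) is filled under 5 settings.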

How the data were processed

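Per the file headers, the authors exported GenomeStudio tables of mean bead intensity per probe, not normalized, with the deposited bead standard error, number of beads and detection p-value. By the same headers the GenomeStudio gene expression module was 1.7.0 for batch A and 1.9.0 for batch B. The deposited log2 table (40083 rows, with a median of 0 on every array, normalized by a method not given in the sources used here) served as an alternative for batch B. In batch A 3 array columns matched no sample and were not used.

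In R 4.3.3 with limma 3.58.1 and data.table (1.17.8), the normal-exponential model, fitted through the detection p-values, took off background, 16 was added, arrays were quantile normalized within a batch, and log2 was taken. Quantile normalization hides a change shared by all transcripts. Probes detected (p below 0.01) on at least 3 arrays were kept, 14130 in batch A, 13773 in batch B and 14901 in the fit of 21 arrays. Tests were two-sided with Benjamini-Hochberg adjustment over all kept probes. The fit was first run on simulated levels with independent noise. These held no beadchip differences and no dim arrays, so they cannot show how the test behaves with those. Probe names came from the accession (29370), Entrez identifier (2975), symbol (2214) or synonym (2371), and 8351 kept the name in the file.

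All member probes are named. The text also names list genes that passed, some others of the same lists, and the 3 probes most like each detected Id gene, of which 1 is not reported here. For list genes the brightest kept probe was used. The members and lists were chosen with earlier results of these data known. Alternatives were background, offset, scaling, filter, 1 probe per gene, beadchip, replicate number, the deposited table and single arrays left out. Sequences of probes and proteins were not used here.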

Additional observations from a re-analysis of the deposited data

Results flagged for a closer look

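The probe named IDB2 (3130292) falls outside the rule and was matched to Id2 by that synonym alone. Its 18 kHz effect exceeded its 42 °C effect by 1.92 (adjusted p = 0.00417 from limma over all 21 arrays), a test of the difference between the effects. The 3 arrays at 18 kHz lay above, and the 3 at 42 °C below, all untreated arrays of their own batch. By deposited intensity the 18 kHz arrays (166.4, 123.8 and 214.5) overlap the untreated ones (159.0, 173.6 and 150.4), of which 1 of 3 was detected, so the size of the 18 kHz effect rests partly on background. Under median scaling the difference was 1.11 (adjusted p = 0.105). For the Id2 probe 1030519 the same difference was 0.76 (adjusted p = 0.279).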

How the results depend on the processing

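The counts of all probes called moved most. At 18 kHz, 416 probes were called, against 1209 without background correction, 787 with an offset of 50, 6933 (12 higher, 6921 lower, against 181 and 235) under median scaling, 181 without a detection filter, 220 with 1 probe per gene, 191 with beadchip as a block, 180 with the replicate block, 1 within beadchip A2, and 27 to 4412 with 1 array left out (82 without replicates 1 and 2, chosen after the data were seen). At 42 °C, 328 became 9 and 12 within the beadchips, 588 in the deposited table and 129 to 191 with 1 array left out, with 93 higher and 227 lower under median scaling, against 162 and 166. At 47 °C, 1079 became 4419 under median scaling (88 higher, 4331 lower), 642 without a filter, 484 and 0 within the beadchips, 1835 in the deposited table and 237 to 695 with 1 array left out. At 52 °C, 1761 became 4281 under median scaling (171 higher, 4110 lower), 700 and 9 within the beadchips, 2809 in the deposited table and 468 to 3682 with 1 array left out. Median scaling, which evens out array medians over kept and unkept probes together, moved the median of all kept probes to -1.09, -0.15, -0.46 and -0.43 at 18 kHz, 42, 47 and 52 °C.

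Of the 6 member probes, median scaling called 2 at 18 kHz, 42 °C and 47 °C each, 3 at 52 °C and 4 for 18 against 1 kHz. It also called 6933 of all 14130 kept probes at 18 kHz, and 4419 and 4281 of 13773 at 47 and 52 °C. These member counts are therefore not read as a trait of the members. For comparisons between treated groups or between effects, counts over all probes under the alternatives were not made. Their member counts below have no share of all probes beside them and are not read as a trait of the members. At 42 °C 1 was called without background correction, with an offset of 50, with beadchip as a block and in the deposited table, which called 1 at 47 °C and 2 at 52 °C. Within the beadchips 0 were called at 52 °C on B2, 0 for 47 against 42 °C on both, and 2 for 18 against 1 kHz on A1. For 52 against 47 °C 2 were called without background correction, with an offset of 50, with beadchip as a block and in the deposited table. For the 18 kHz minus the 52 °C effect 1 was called without background correction. With 1 array left out 0 to 1 were called at 18 kHz, 42 °C, for 18 against 1 kHz, for 52 against 47 °C and for the 18 kHz minus the 42 or 52 °C effect, and 1 to 2 at 52 °C and for 47 against 42 °C. Under median scaling Id2 (1030519) at 18 kHz turned to -1.17 (adjusted p = 0.0477), Fzr1 to -0.073 at 47 °C and -0.10 at 52 °C, and Tal1 to -0.039 at 52 °C.

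Correlations between the deviations of same-numbered samples were -0.23 to 0.45 (3 of 9 pairs over 0.1) in batch A and -0.43 to 0.15 (5 of 18) in batch B. Pairs of unlike number gave -0.58 to 0.43 (5 of 18 over 0.1) and -0.31 to 0.49 (7 of 36). The medians were 0.04 and 0.004 for the same number and -0.004 and 0.005 for unlike numbers. No clear pairing was seen in so few arrays, and the numbers were not taken as pairs. The highest values, 0.45 in batch A and 0.49 in batch B, came from pairs that share a beadchip. Other pairs that share one went as low as -0.24. The fit as reported holds no term for beadchip. With the replicate block the count of member probes called stayed as given in each comparison with it. The causes of these differences were not tested. With 3 arrays a group, and with Id3 and Tcf3 not above background, precision is limited by the number of arrays and, for the dim probes, by the signal over background.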
